A study of Homo sapiens with 16 samples.

Results

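ATP6AP1L and its relatives ATP6AP1 and ATP6AP2, 3 of the 57736 genes in the deposited count table, were followed through the neural differentiation of the H9 line of human embryonic stem cells, which is long established. The cells were differentiated towards cortical neurons by dual SMAD inhibition and were collected undifferentiated on day 0 (D0) and on days 12, 30 and 70 (D12, D30 and D70). At each stage, 2 libraries came from cells kept in 40 µM Thiamet-G (TMG) in DMSO and 2 from control cells kept in DMSO alone, which gives 8 groups and 16 libraries of total RNA depleted of ribosomal RNA. TMG inhibits OGA, the enzyme that takes the O-GlcNAc sugar off proteins, so the comparison asks how the level of these genes differs where O-GlcNAc is kept high. The study's methods call the 2 libraries of a group biological replicates. Groups follow the titles and descriptions, since in 8 libraries the treatment given as a separate label is that of the opposite arm. All 16 libraries came from 1 cell line.

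ATP6AP1L was chosen by measured values: in an earlier fit of these counts it was the gene with an unadjusted p under 0.05 between TMG and control at all 4 stages, and it was lower in TMG at each. Its differences between TMG and control are therefore given as a description with no test. ATP6AP1 and ATP6AP2 were added by name, and they were tested.

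The vacuolar ATPase (V-ATPase) is a proton pump built from a V1 sector that splits ATP and a membrane V0 sector that carries protons, and it acidifies lysosomes, endosomes and secretory vesicles. ATP6AP1, also known as Ac45, is an accessory protein of the V0 sector that is needed for assembly of the pump. ATP6AP2, the prorenin receptor, is a second accessory protein that sits beside it, and ATP6AP1L takes its name from its likeness to ATP6AP1. In neurons the pump also drives the loading of synaptic vesicles with transmitter.

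In a GENCODE annotation on GRCh37, ATP6AP1L (ENSG00000205464) lay on the plus strand at chr5:81575281-81682796 as a transcribed unitary pseudogene, which is a gene that gives RNA but has no intact protein-coding copy in the species. Its 5 transcripts were between 796 and 3524 bases long, and its merged exons covered 7229 bases of a span of 107516. ATP6AP1 (ENSG00000071553; chrX:153656979-153664862) and ATP6AP2 (ENSG00000182220; chrX:40438624-40466100) were protein-coding genes, both on the plus strand. The stretch of ATP6AP1L that aligned with the coding sequence of ATP6AP1 is shown because ATP6AP1L is named for its likeness to that gene. It ran over 150 bases with no gap, of which 99 (66.0%) were identical. In ATP6AP1L-204 it took transcript positions 405 to 554, which join 2 exons at chr5:81608662-81613957, and all 150 bases also lay in exons of ATP6AP1L-205. In ATP6AP1-201 it took positions 1211 to 1360, which join 2 exons at chrX:153663843-153664168, and all 150 bases were coding. Both sequences are written 5′ to 3′ from GRCh37 with the intron left out, and capitals mark the bases that are identical in both.
ATP6AP1L: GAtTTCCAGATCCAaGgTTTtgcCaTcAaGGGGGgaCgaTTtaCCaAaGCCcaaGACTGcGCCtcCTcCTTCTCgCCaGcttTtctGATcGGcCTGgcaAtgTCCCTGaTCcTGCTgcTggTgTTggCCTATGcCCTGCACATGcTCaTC
ATP6AP1: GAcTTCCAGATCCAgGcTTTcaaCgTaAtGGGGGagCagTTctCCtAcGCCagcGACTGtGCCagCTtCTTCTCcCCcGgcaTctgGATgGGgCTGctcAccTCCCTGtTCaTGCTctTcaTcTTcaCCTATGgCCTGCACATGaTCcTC

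Within this stretch the capitals came in short runs. Other transcripts aligned more closely outside it. ATP6AP1L-201 was 80.3% identical with ATP6AP1-207 over 314 aligned bases on opposite strands, and ATP6AP1L-203 was so over 117 on the same strand. ATP6AP1L-201 was also 96.0% identical with a transcript of ATP6AP2 over 50 bases on the same strand. These matches were not particular to 1 pair of genes. The part of ATP6AP1L-201 within positions 964 to 1259 also aligned with several places in ATP6AP2-230, on both strands. That of ATP6AP1L-203 within positions 1681 to 1804 did so too. The closer matches are therefore not read as likeness between the genes. Over all pairs of transcripts, the longest run of identical bases on the same strand was 13 between ATP6AP1L and ATP6AP1, 37 between ATP6AP1L and ATP6AP2, and 24 between ATP6AP1 and ATP6AP2. On opposite strands, which the library kit does not tell apart, the longest runs were 26, 24 and 26 bases. RSEM shares a read that fits several genes between them, and the deposited counts do not show how many reads of these genes were shared.

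Libraries held between 10334908 and 19836878 counts. As a check of the labels, 10 markers of undifferentiated stem cells summed to between 4444 and 5279 CPM (counts per 1000000 of the TMM-scaled library size) in the 4 libraries of D0 and to between 43.5 and 53.5 CPM in those of D70, and 9 markers of neural progenitors were highest in the control libraries of D12, at 1481 and 1336 CPM. SOX1, a defining gene of neural progenitors, had at most 6 counts in any library and none in 9 of 16, among them both TMG libraries and 1 control library of D12 and all 4 libraries of D70, too few to check the progenitor stage. Replicate 2 of D70 stood apart in both arms: 10 markers of mesenchymal cells summed to 45938 CPM in control and 60282 CPM in TMG, against 7774 and 4013 CPM in replicate 1, while 10 markers of neurons summed to 624 and 226 CPM, against 1261 and 1342 CPM. Markers of choroid plexus and roof plate summed to 11584 and 4549 CPM in replicate 1 of that stage and to 622 and 108 CPM in replicate 2. The replicate 2 libraries of D70 also differed between arms. Pigment epithelium markers summed there to 2496 CPM in control and 166 CPM in TMG, against 510 and 504 CPM in replicate 1. Progenitor markers summed to 612 and 109 CPM in replicate 2, against 749 and 950 CPM in replicate 1. TMG replicate 2 of D30 was also high in mesenchymal markers, at 30768 CPM against 5959 CPM in TMG replicate 1 and 4607 and 5585 CPM in the control libraries. Neuronal markers of D30 summed to 849 and 1115 CPM in TMG against 573 and 694 CPM in control. Those of choroid plexus and roof plate summed to 1779 and 1545 against 1028 and 1088 CPM, and those of progenitors to 853 and 648 against 962 and 931 CPM. Sums for pigment epithelium and astroglia were also higher in both TMG libraries of D30, and those for stem cells overlapped. The part of these differences in the results was not tested. Values without the libraries that stood apart are given for ATP6AP1L, and not for each other gene named.

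ATP6AP1L was lower in the TMG-treated cells at every stage, by 1.87-fold, 2.81-fold, 4.28-fold and 3.37-fold in turn from D0 to D70. In control cells its level stood at 4.57 and 2.03 CPM in replicates 1 and 2 of D0, 7.76 and 7.23 CPM on D12, 9.77 and 10.0 CPM on D30, and 6.62 and 9.90 CPM on D70. In TMG-treated cells it stood at 1.99 and 1.55 CPM on D0, 2.65 and 2.67 CPM on D12, 2.72 and 1.89 CPM on D30, and 2.21 and 2.68 CPM on D70. Both TMG libraries thus lay below both control libraries at each stage, with a wide gap from D12 on and almost none on D0, where the higher TMG library was at 1.99 CPM and the lower control library at 2.03 CPM. In these bulk libraries, fewer cells that make the RNA and less RNA per cell cannot be told apart.

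**Figure D1:**
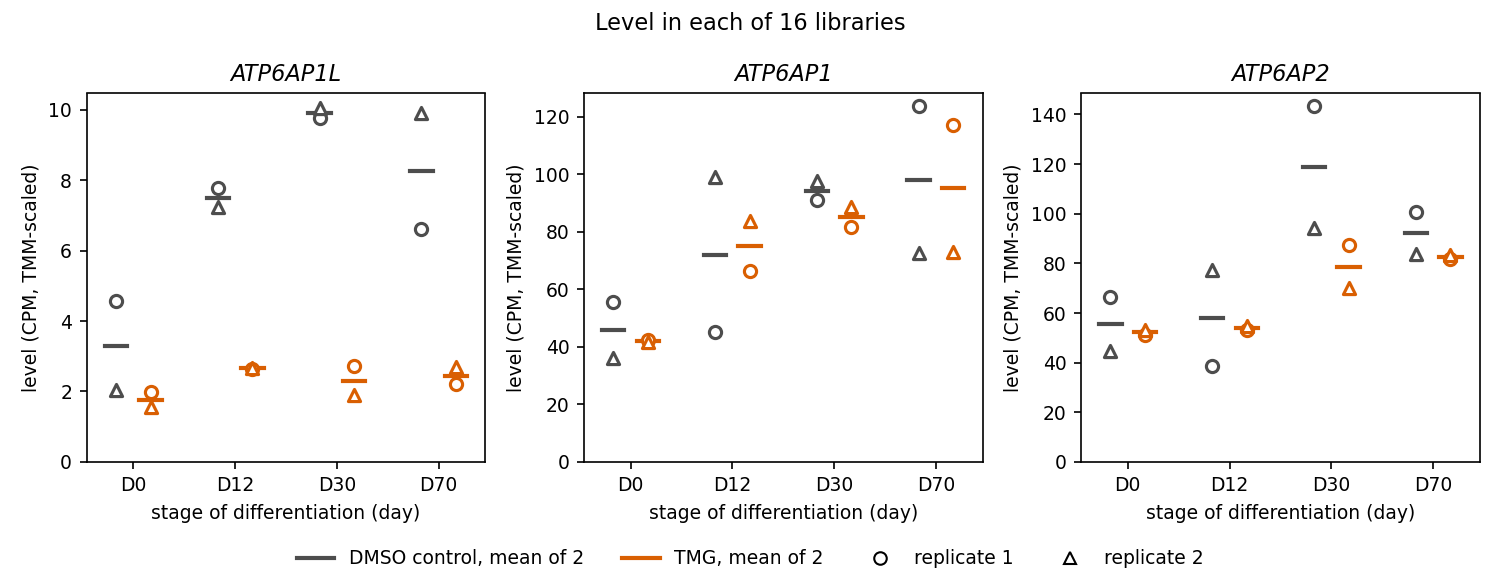
Level of ATP6AP1L, ATP6AP1 and ATP6AP2 in CPM (TMM-scaled) on each of the 4 stages, with grey for DMSO control and orange for TMG, a circle for replicate 1, a triangle for replicate 2 and a bar for the mean of 2. ATP6AP1L in TMG stays between 1.55 and 2.72 CPM at all stages while control reaches 10.0 CPM, and the points of ATP6AP1 and ATP6AP2 mix between arms on D0 and D12.

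The log2 fold changes of ATP6AP1L, TMG over control, were -0.90 ± 0.40 (SE), -1.49 ± 0.40, -2.10 ± 0.41 and -1.75 ± 0.41 in turn from D0 to D70. Means with their spread were 3.30 ± 1.80 CPM in control and 1.77 ± 0.314 CPM in TMG on D0 (SD, n = 2), and 7.50 ± 0.380 against 2.66 ± 0.0154 CPM on D12. On D30 they were 9.91 ± 0.186 against 2.31 ± 0.585 CPM, and on D70 8.26 ± 2.32 against 2.45 ± 0.332 CPM. The difference of means was larger than either SD from D12 on, and on D0 it was smaller than the SD of the control libraries. The D0 value rested on control replicate 1: without that library the log2 fold change was -0.17, and without control replicate 2 it was -1.37. With the library total as the scale in place of TMM, the D0 arms overlapped, since the lower control library stood at 1.85 CPM and the higher TMG library at 2.17 CPM.

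These levels rest on few reads. Replicates 1 and 2 of control held 74 and 29 counts of ATP6AP1L at D0, 158 and 132 counts at D12, 104 and 200 counts at D30, and 103 and 123 counts at D70. Those of TMG held 29 and 30 counts at D0, 51 and 43 counts at D12, 28 and 20 counts at D30, and 28 and 29 counts at D70. The lowest count, 20 in TMG replicate 2 of D30, has an exact 95% Poisson interval of 12.2 to 30.9, and the highest, 200 in control replicate 2 of D30, one of 173 to 230. These intervals cover counting error only and are not scaled for depth.

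The libraries that stood apart moved these values little. Without both libraries of replicate 2 the log2 fold change of D70 was -1.58, from 6.62 CPM in control and 2.21 CPM in TMG. Without TMG replicate 2 of D30, the library high in mesenchymal markers, that of D30 was -1.86.

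ATP6AP1L was also set against its relatives in the same library, which needs no scaling between libraries, and was lower in TMG at every stage. The counts of ATP6AP1L used here are those that chose the gene, so this adds no separate support. Its counts came to 8.21% and 5.62% of those of ATP6AP1 in the control libraries of D0 and to 4.68% and 3.70% in the TMG libraries. The shares were 17.3% and 7.30% against 4.00% and 3.19% on D12, 10.7% and 10.3% against 3.33% and 2.14% on D30, and 5.36% and 13.6% against 1.89% and 3.68% on D70. The arms did not overlap at any of the 4 stages, and the control mean was between 1.65 and 3.84 times the TMG mean.

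Relative to ATP6AP2, the counts of ATP6AP1L came to 6.88% and 4.55% in control and 3.88% and 2.90% in TMG on D0, and to 20.2% and 9.37% against 4.99% and 4.88% on D12. On D30 they came to 6.82% and 10.7% against 3.11% and 2.70%, and on D70 to 6.57% and 11.8% against 2.70% and 3.21%. No stage had arms that overlapped on this scale either, and the control mean was between 1.69 and 3.11 times the TMG mean. Both scales were chosen after the data were seen, and the share of all genes without overlap on them was not counted.

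**Figure D2:**
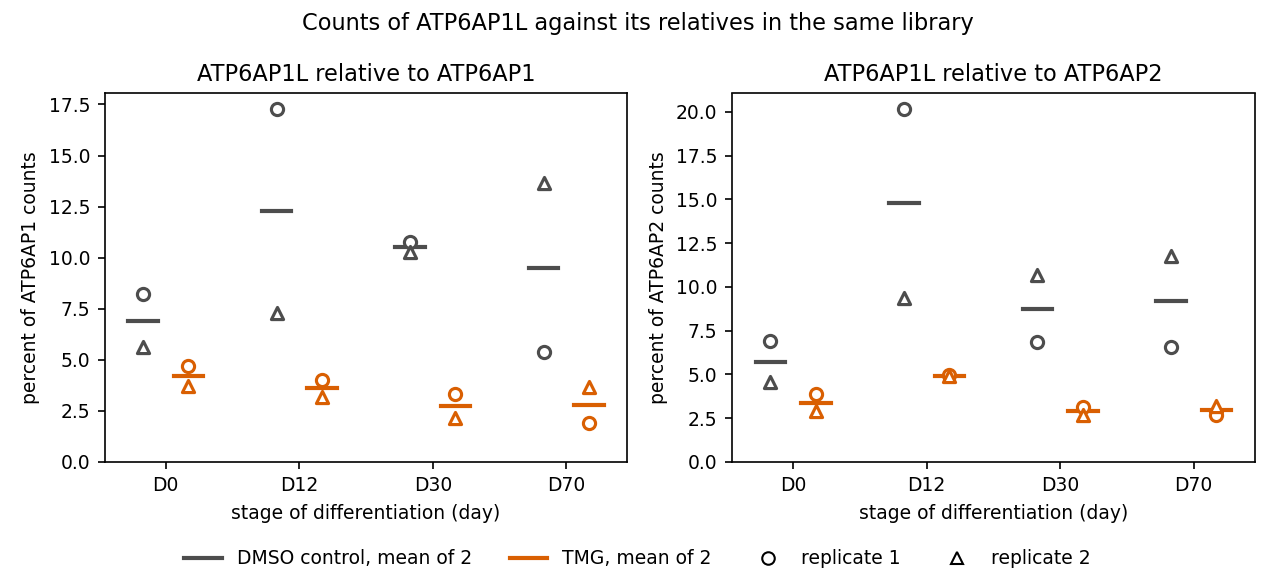
Counts of ATP6AP1L as a percent of the counts of ATP6AP1 (left) and of ATP6AP2 (right) in the same library, by stage, with grey for control, orange for TMG, circles and triangles for replicates 1 and 2, and bars for means of 2. The TMG points lie between 1.89% and 4.99%, and the control points of each stage lie above the TMG points of that stage.

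The choice that led to ATP6AP1L can be read against all 24249 genes tested. An unadjusted p under 0.05 with a level lower in TMG was met by 0.895%, 0.936%, 4.89% and 2.88% of genes from D0 to D70 in turn. In either direction, at all 4 stages such a p was met by 1 gene, ATP6AP1L, whose largest unadjusted p was 0.0472, and at exactly 3 stages by 64 genes. Genes just outside included EIF2AK3-DT, whose largest p over the 4 stages was 0.0613, and LRRC7, with 0.0632. EIF2AK3-DT, a divergent transcript of the stress kinase gene EIF2AK3, had log2 fold changes of -1.59, -0.93, -1.46 and -1.21 from D0 to D70, and LRRC7 had -0.70, 1.21, 1.55 and 0.68, so the direction differed among genes near the threshold. These p-values chose the gene and are not a test of it.

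Both TMG libraries lay below both control libraries for 16.9%, 16.5%, 21.0% and 12.4% of genes at D0, D12, D30 and D70. At all 4 stages this held for 214 genes (0.883%), ATP6AP1L among them, and the reverse for 107 genes. By the mean of the 4 log2 fold changes, -1.56, ATP6AP1L ranked 161st from the lowest of 24249 genes, and 10th among the 14133 genes with its mean level or more. By edgeR's quasi-likelihood test with Benjamini-Hochberg adjustment, 0 genes (0%) passed a false discovery rate of 5% between TMG and control at any stage. At an unadjusted p under 0.05 there were 306, 601, 2908 and 1332 genes from D0 to D70, and DESeq2 called 5, 11, 592 and 52.

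ATP6AP1, the assembly subunit that ATP6AP1L resembles, did not pass the test between TMG and control at any stage. Its control level was 55.7 and 36.1 CPM on D0, 45.0 and 99.0 CPM on D12, 91.0 and 97.6 CPM on D30, and 124 and 72.6 CPM on D70. In TMG it was 42.5 and 41.8 CPM on D0, 66.2 and 83.6 CPM on D12, 81.7 and 88.4 CPM on D30, and 117 and 73.0 CPM on D70. The arms overlapped on D0, D12 and D70, and on D30 both TMG libraries lay below both control libraries by a small gap. The log2 fold changes were -0.12 ± 0.38 (SE), 0.057 ± 0.38, -0.15 ± 0.38 and -0.047 ± 0.38 from D0 to D70, with adjusted p of 1, 1, 0.924 and 0.995 by edgeR's quasi-likelihood test. Replicates differed far more than arms on D12 and D70.

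ATP6AP2, the prorenin receptor, did not pass at any stage either, and its lowest TMG level against control was on D30. Control cells gave 66.4 and 44.6 CPM on D0, 38.5 and 77.1 CPM on D12, 143 and 94.1 CPM on D30, and 101 and 83.9 CPM on D70. TMG-treated cells gave 51.3 and 53.3 CPM on D0, 53.1 and 54.7 CPM on D12, 87.3 and 70.04 CPM on D30, and 81.9 and 83.5 CPM on D70. On D0 and D12 the TMG libraries fell between the 2 control libraries, and on D30 and D70 both lay below both. Its log2 fold changes were -0.087 ± 0.32 (SE), -0.10 ± 0.31, -0.59 ± 0.32 and -0.16 ± 0.31, with adjusted p of 1, 1, 0.486 and 0.966 by edgeR's quasi-likelihood test. Without control replicate 1 of D30, at 143 CPM, the D30 value was -0.26.

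**Figure D3:**
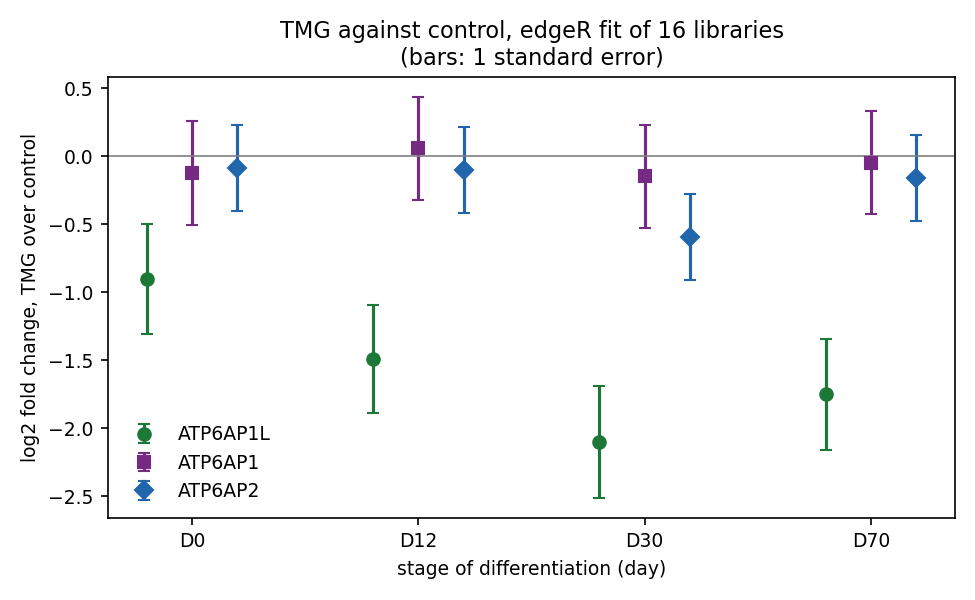
Log2 fold change of TMG over control for ATP6AP1L (circles), ATP6AP1 (squares) and ATP6AP2 (diamonds) at each stage, with bars of 1 standard error from the edgeR fit of 16 libraries. The circles lie between -2.10 and -0.90, and all squares and diamonds lie between -0.59 and 0.057.

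Whether the TMG difference of a relative changed with the stage was tested for the 6 pairs of stages, which gives 12 tests for ATP6AP1 and ATP6AP2. None passed edgeR's quasi-likelihood test, and 0 of the 12 had an unadjusted p under 0.05 or passed by DESeq2. The largest difference in size was that of ATP6AP2 between D30 and D0, at -0.51 ± 0.45 (SE, adjusted p = 0.978 by edgeR). Over all genes, 0% passed by edgeR in each of the 6 pairs, and DESeq2 called between 3 and 24 genes. ATP6AP1L was not tested, because its values at every stage had entered the choice.

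In control cells the mean level of ATP6AP1L was lowest on D0 and highest on D30, at 3.30 CPM on D0, 7.50 CPM on D12, 9.91 CPM on D30 and 8.26 CPM on D70. These control libraries had entered the choice of the gene, so its stage differences are also a description with no test. Relative to D0 the level was 2.26-fold on D12 (log2 1.18 ± 0.40 SE), 2.99-fold on D30 (log2 1.58 ± 0.40) and 2.49-fold on D70 (log2 1.32 ± 0.40). Both control libraries of each later stage lay above both of D0. The share of all genes with that order was not counted. Differences from D0 were common in control: 16.7%, 30.6% and 29.8% of genes passed by edgeR on D12, D30 and D70, in either direction. Among the later stages the log2 differences were 0.40 ± 0.39 for D30 over D12, 0.14 ± 0.39 for D70 over D12 and -0.26 ± 0.39 for D70 over D30, and the libraries of D70, at 6.62 and 9.90 CPM, spanned those of D12. The size of the differences from D0 rested on the D0 libraries: without D0 control replicate 2 they were 0.71, 1.11 and 0.85 on the log2 scale, and without D0 control replicate 1 they were 1.91, 2.34 and 2.05.

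In TMG-treated cells the means of ATP6AP1L ran from 1.77 CPM on D0 to 2.66 CPM on D12, a ratio of 1.51 against 3.001 in control. The order was D12, D70, D30, D0. The control libraries enter both this comparison and that between TMG and control, and the difference between the 2 ratios was not tested.

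ATP6AP2 rose in control cells from D0 to D30, from 55.5 to 119 CPM (2.14-fold, log2 1.09 ± 0.32 SE, adjusted p = 0.0244 by edgeR's quasi-likelihood test, where 30.6% of genes passed). The call was lost without D0 control replicate 2 (adjusted p = 0.168 by edgeR) or D30 control replicate 1 (0.183). Its other pairs did not pass by edgeR, the lowest adjusted p being that of D30 against D12 (log2 difference 1.04 ± 0.32, adjusted p = 0.0993 by edgeR, where 3.60% of genes passed), which passed by DESeq2 (adjusted p = 0.0225). ATP6AP1 had means of 45.9, 72.0, 94.3 and 98.1 CPM from D0 to D70 in control, and no pair passed by edgeR in the main fit. Its log2 differences from D0 were 0.65, 1.04 and 1.10, with adjusted p of 0.268, 0.0614 and 0.0522 by edgeR, where 16.7%, 30.6% and 29.8% of genes passed. DESeq2 passed those of D30 and D70, with adjusted p of 0.0323 and 0.0240. Under RLE scaling that of D70 passed. With a replicate block within each stage those of D30 and D70 passed (log2 1.06 and 1.07). The block also passed ATP6AP2 for D70 over D0 (0.75) and D30 over D12 (1.07). Between D70 and D12, where 11.1% of genes passed, and between D70 and D30, where 0.384% did, neither relative passed by edgeR or DESeq2.

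Per kilobase of merged exons, the control level of ATP6AP1L was 0.457 CPM on D0, 1.04 CPM on D12, 1.37 CPM on D30 and 1.14 CPM on D70. That of ATP6AP1 was between 8.07 and 17.3 CPM per kilobase and that of ATP6AP2 between 5.82 and 12.4. On this scale ATP6AP1 stood 12.1 to 17.7 times above ATP6AP1L in control cells and ATP6AP2 5.84 to 12.7 times. Over the longest transcript in place of merged exons, ATP6AP1 stood 7.43 to 10.9 times above it and ATP6AP2 7.56 to 16.5 times. On the first scale ATP6AP1 was above ATP6AP2 at all 4 stages of control and on the second below it, so the order of the relatives depends on which length is taken, while ATP6AP1L was the lowest of the 3 on both.

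No subunit of the pump passed the test between TMG and control. Of a list of 25 subunits and accessory proteins that holds ATP6AP1 and ATP6AP2 but not ATP6AP1L, 24 were tested and ATP6V1G3 was not. Of these, 0 passed edgeR's quasi-likelihood test and 0 were called by DESeq2 at any stage, and at an unadjusted p under 0.05 there was 1 on D30 and 1 on D70, both higher in TMG, with 0 at the earlier stages. Of all genes 0.367%, 1.54%, 7.10% and 2.61% were higher in TMG at that p from D0 to D70. The log2 fold change was below 0 for 15, 7, 18 and 12 of the 24 in turn from D0 to D70, against 50.3%, 49.2%, 48.9% and 51.0% of all genes. The list's medians were -0.050, 0.15, -0.16 and 0.011, against -0.0021, 0.0028, 0.011 and -0.010 over all genes. With RLE scaling the count of D70 was 9 of 24, and the medians kept their signs.

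**Figure D4:**
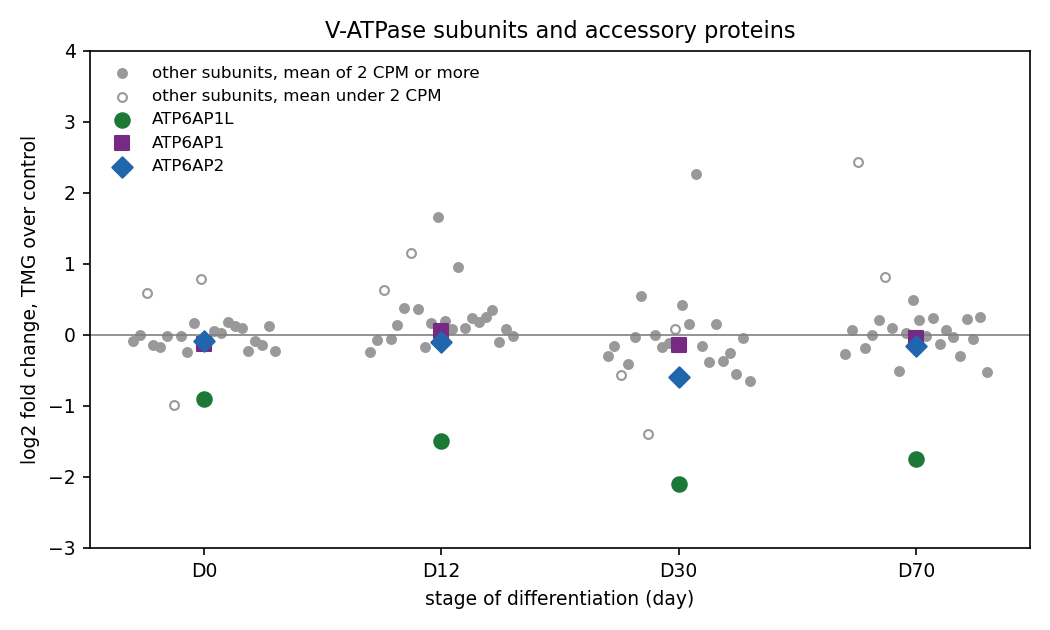
Log2 fold change of TMG over control at each stage for 22 other V-ATPase subunits (grey, spread sideways in alphabetical order; open circles have a mean under 2 CPM), ATP6AP1 (square), ATP6AP2 (diamond) and ATP6AP1L (green circle). ATP6AP1L is the lowest point on D12, D30 and D70, and on D0 ATP6V0D2, which has at most 1 count in a library there, lies lower.

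Among the a subunits of V0, which sit in the membrane sector, no difference passed the test. ATP6V0A1, the a subunit of neurons and many other cells, stood at 98.9 and 124 CPM in control and 94.7 and 94.1 CPM in TMG on D12, and at 133 and 116 against 115 and 86.6 CPM on D30 (log2 fold changes -0.24 and -0.30). ATP6V0A4, the a subunit of kidney, was at 0.193 and 0.0805 CPM in control and 0.237 and 1.39 CPM in TMG on D70 (log2 2.43, adjusted p = 0.894 by edgeR). TCIRG1, the a subunit of osteoclasts, stood at 24.1 and 22.5 CPM in control and 20.1 and 9.56 CPM in TMG on D30 (log2 -0.65, adjusted p = 0.447 by edgeR), and on D70 at 22.1 and 17.8 against 12.6 and 15.3 CPM (log2 -0.52), the lowest value of the list at that stage. Both TMG libraries of TCIRG1 were below both control libraries at these stages and on D0. The same order held for 16.9% of all genes on D0, 21.0% on D30 and 12.4% on D70, and TCIRG1 is named for its low values.

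None of the d and e subunits passed the test on the full set of libraries. ATP6V0D1, the d subunit of most cells, was at 22.3 and 35.3 CPM in control and 29.1 and 54.8 CPM in TMG on D30, with arms that overlapped at all 4 stages. ATP6V0D2 had at most 16 counts in any library. ATP6V0E2, an e subunit of the brain, was at 37.5 and 23.3 CPM in control and 36.3 and 6.29 CPM in TMG on D70 (log2 -0.51), the last in the library with 226 CPM of neuronal markers. Without TMG replicate 1 of D70, 2 subunits passed at D70, ATP6V0E2 (log2 -2.28, adjusted p = 0.0317 by edgeR) and ATP6V1G2 (log2 -2.03, adjusted p = 0.0334), with replicate 2 as the 1 library of the TMG arm, so the spread behind these p-values comes from the other groups and the lone library is assumed to vary as they do.

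Of the V1 subunits, ATP6V1C2, a C subunit of epithelia, stood at 6.95 and 7.33 CPM in control and 42.3 and 26.3 CPM in TMG on D30 (log2 2.26, unadjusted p = 0.0486 and adjusted p = 0.415 by edgeR). On D70 it was at 10.3 and 73.2 CPM in control and 90.5 and 7.77 CPM in TMG, so its replicates crossed. ATP6V1B1, the B subunit of kidney and inner ear, was at 1.77 and 1.26 CPM in control and 6.34 and 3.29 CPM in TMG on D12 (log2 1.66, adjusted p = 1 by edgeR), and on D70 at 15.7 and 21.7 CPM in replicate 2 of the arms against 0.193 and 0.553 CPM in replicate 1.

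Genes that assemble and regulate the pump, and genes of the lysosome and of nutrient sensing on its surface, did not pass either. Of 12 assembly and regulation genes, 6, 4, 7 and 6 had a log2 fold change below 0 from D0 to D70, with medians of 0.033, 0.043, -0.10 and -0.086. Of 30 lysosomal genes, 21, 8, 16 and 16 did, with medians of -0.084, 0.10, -0.075 and -0.015, the last of which turned to 0.019 with 12 genes below 0 under RLE scaling. Of all genes, 50.3%, 49.2%, 48.9% and 51.0% were below 0. None of either list passed by edgeR or DESeq2, and at an unadjusted p under 0.05 there were 0, 0, 1 and 1 of the first and 0, 0, 4 and 1 of the second. The 4 lysosomal genes of D30 were 3 lower in TMG, where 4.89% of all genes were, and 1 higher, where 7.10% were. The gene of the first list on D30 was higher, and the genes of both lists on D70 were lower, where 2.88% of all genes were, and nothing is read from counts this small. DMXL1, which takes part in assembling the pump, was the highest of its list by the mean of 4 stages and stood at 73.9 and 60.7 CPM in control and 104 and 104 CPM in TMG on D30 (log2 0.63, adjusted p = 0.269 by edgeR). ROGDI, a partner of the DMXL proteins, was the lowest, with log2 fold changes from -0.47 to -0.14. RRAGD, a GTPase that recruits mTORC1 to the lysosome, stood at 58.5 and 56.0 CPM in control and 37.6 and 17.8 CPM in TMG on D70 (log2 -1.05, adjusted p = 0.858 by edgeR). IGF2R, the mannose 6-phosphate receptor that brings enzymes to the lysosome, had log2 fold changes from -0.045 to 0.69. On D70 IGF2R stood at 208 and 265 CPM in control and 214 and 549 CPM in TMG. The 17.8 CPM of RRAGD and the 549 CPM of IGF2R came from TMG replicate 2, which was high in mesenchymal markers. Control replicate 2 of D70, also high in these markers, had 56.0 CPM of RRAGD and 265 CPM of IGF2R. The part of the cell makeup in these values was not tested.

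On chromosome 5 no annotated gene overlapped ATP6AP1L. Of tested genes, only those with a symbol were taken as neighbours. The nearest of them was RPS23, which encodes a protein of the small ribosomal subunit. It lies head to head with ATP6AP1L on the minus strand, with 1065 bases between them. RPS23 stood at 138 and 214 CPM in control and 194 and 187 CPM in TMG on D0, 72.4 and 72.2 against 99.9 and 125 CPM on D12, 103 and 101 against 86.4 and 134 CPM on D30, and 131 and 131 against 129 and 188 CPM on D70. Its fitted value was higher in TMG at all 4 stages, by a log2 fold change between 0.11 and 0.64, and no stage passed (adjusted p = 1 on D12 by edgeR, unadjusted 0.0344). Next was ATG10, which encodes an enzyme of autophagosome formation and ends 2.6 kb before ATP6AP1L on the same strand. Its arms overlapped at each stage, at 2.44 and 3.36 CPM in control and 3.11 and 7.10 CPM in TMG on D30, for example.

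Over 10 tested neighbours with a symbol, 5 on each side, 22 of 40 log2 fold changes were below 0. This was near the share of all genes, which ran from 48.9% to 51.0% by stage. By edgeR 0 passed, with 2 at an unadjusted p under 0.05 (RPS23 higher on D12, where 1.54% of all genes were, and XRCC4 lower on D70, where 2.88% were) and a lowest adjusted p of 0.495, and 0 were called by DESeq2. They were SSBP2, ATG10, PPIAP11, ATG10-AS1 and RPS23 before the gene, and RPL5P16, TMEM167A, SCARNA18, XRCC4 and COQ10BP2 after it. XRCC4, a factor of DNA end joining that starts 690.5 kb after ATP6AP1L, was the 1 neighbour below 0 at all 4 stages, from -0.17 on D0 to -1.03 on D70 (unadjusted p = 0.0275, adjusted p = 0.894 by edgeR). PPIAP11, a processed pseudogene, gave the lowest value, -4.04 on D30 with a standard error of 2.22.

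**Figure D5:**
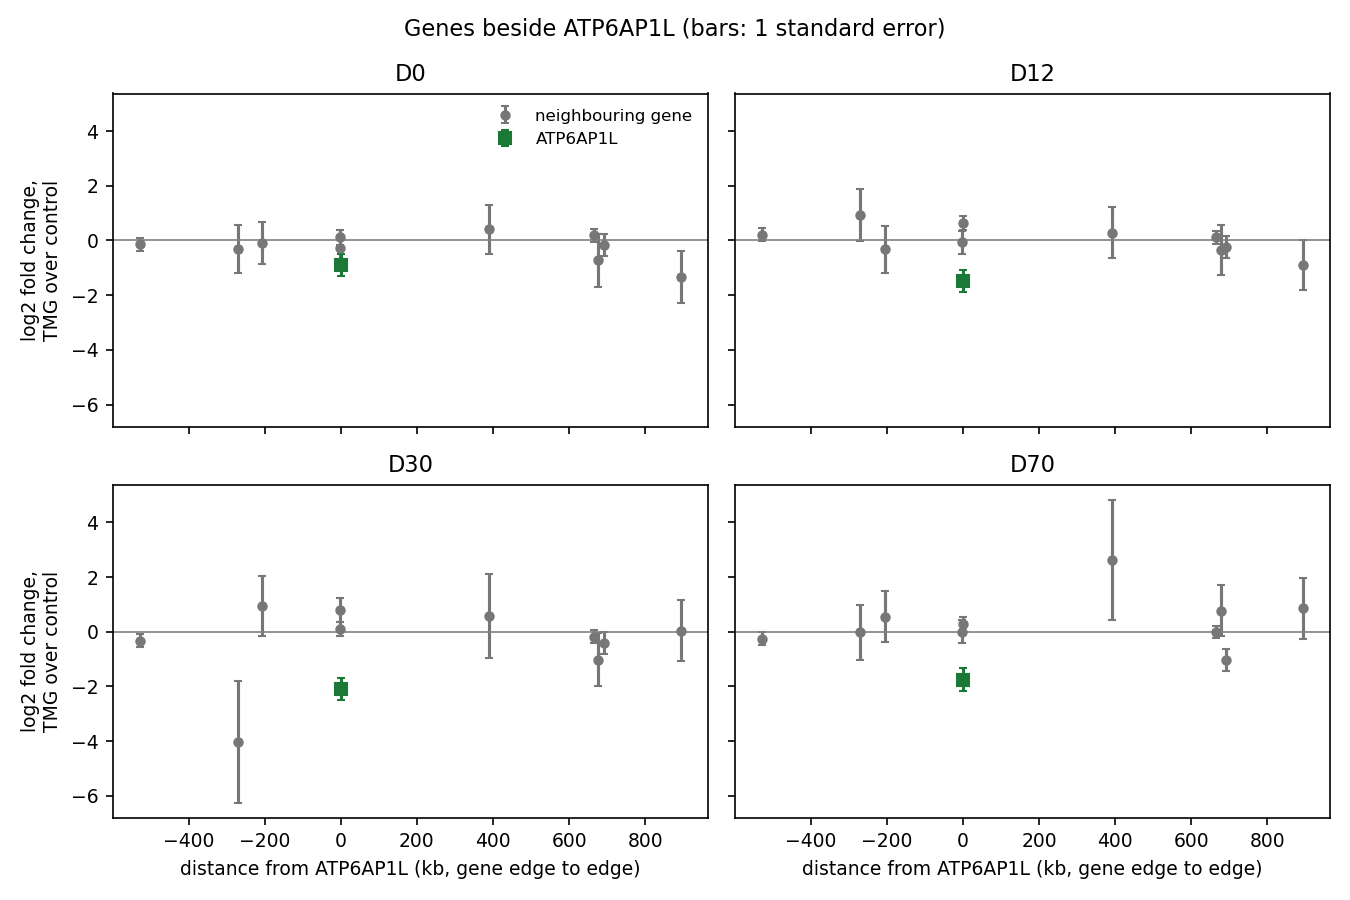
Log2 fold change of TMG over control, with bars of 1 standard error, for the 10 neighbours of ATP6AP1L by their distance from it in kilobases (grey) and for ATP6AP1L itself at 0 (green square), 1 panel per stage. The pair of plotted genes within 3 kb, RPS23 and ATG10, lies between -0.26 and 0.80, above ATP6AP1L at every stage.

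Genes whose log2 level was most like that of ATP6AP1L over the 16 libraries were found by Pearson's r. This is a description without p, since the points share the stages, the arms and the choice of the gene, and for the same reason the differences between arms of the genes it names are given without a test. The 5 highest were AMZ2 (r = 0.911), CPSF1P1 (0.898), TNFRSF6B (0.889), XKR9 (0.846) and C1orf131 (0.843), against 0.367 for ATP6AP1 and 0.477 for ATP6AP2. AMZ2, a metallopeptidase, stood at 47.3 and 49.5 CPM in control and 27.8 and 26.2 CPM in TMG on D30, with both TMG libraries below both control libraries at all 4 stages. TNFRSF6B, a decoy receptor of the TNF family, had no count in the D0 libraries nor in any TMG library, and between 0.241 and 1.25 CPM in control from D12 on.

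With the mean of each stage taken out, so that the likeness is within stages, the 5 highest were ZNF839 (r = 0.970), POLR1HASP (0.959), CCDC102B (0.942), UVSSA (0.939) and CCDC183-AS1 (0.934), and ATP6AP1 and ATP6AP2 had 0.043 and 0.471. UVSSA, a factor of transcription-coupled DNA repair, stood at 132 and 158 CPM in control and 64.7 and 51.8 CPM in TMG on D30 (log2 -1.31 ± 0.19 SE). POLR1HASP had log2 fold changes of -0.28, -0.56, -0.75 and -0.80 from D0 to D70, and CCDC183-AS1 -0.13, -0.75, -0.91 and -0.61. Both can share reads with genes on the other strand, since the kit does not mark strand.

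Running opposite to ATP6AP1L within stages were OGT (r = -0.949), SOCS2 (-0.939) and GABPB1 (-0.937). OGT, the enzyme that adds O-GlcNAc, stood at 403 and 424 CPM in control and 481 and 476 CPM in TMG on D0, 490 and 479 against 635 and 582 CPM on D12, 434 and 414 against 598 and 720 CPM on D30, and 501 and 457 against 608 and 656 CPM on D70. Both TMG libraries lay above both control libraries at all 4 stages, with a log2 fold change of 0.64 on D30. SOCS2, a brake on cytokine signalling, was at 5.73 and 8.48 CPM in control and 28.7 and 29.0 CPM in TMG on D30 (log2 2.01).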

How the data were processed

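Libraries had been made with a NEBNext Ultra kit, which does not mark strand, aligned with Bowtie2 to hg19 and counted per Ensembl gene with RSEM 1.2.12. The authors deposited expected counts, given as whole numbers without normalization. Values of all 16 columns were used. From them, genes with a minimum count of 10 and a total of 15 were kept by edgeR 4.0.16, scaled by TMM, and fitted with 1 mean for each of 8 groups (8 residual degrees of freedom). Quasi-likelihood F-tests were adjusted by Benjamini-Hochberg over 24249 genes within each comparison, and each standard error is the size of the log2 fold change over the root of its F statistic. DESeq2 1.42.0 was an alternative, beside RLE scaling, no filter, a prior count of 2, fits of 1 stage, the replicate number as a block and each library left out. Tests were tried on simulated counts. A test of ATP6AP1L between stages had been planned and is not given, because its control libraries had entered the choice. R 4.3.3, Python 3.11.15 and BLAST 2.17.0 were used.

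Members and lists were chosen with earlier results of these data known. The lists were written from general knowledge. Genes named, beside the members, are the 2 highest and 2 lowest V-ATPase subunits of each stage, the highest and lowest of the other lists over the mean of 4 stages, 5 neighbours on each side, those most like ATP6AP1L (r of log2 CPM with a prior count of 2), those just outside the choice (not all are reported here), 5 genes lower at all stages and any gene passing. ATP6V1G2 was named after its values were seen. Symbols matched 43484 of 57736 gene IDs. Coordinates are from a GENCODE annotation on GRCh37, whose transcripts differ from the set that was counted. Between replicates, counts differed by far more than sampling noise (chi-square per degree of freedom between 25.5 and 159).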

Additional observations from a re-analysis of the deposited data

How the results depend on the processing

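ATP6AP1L stayed lower in TMG at all 4 stages under RLE scaling, DESeq2, no filter, a prior count of 2, the replicate block and fits of 1 stage. Without each library in turn its log2 fold change ran from -1.37 to -0.17 on D0, from -2.39 to -1.86 on D30 and from -2.01 to -1.42 on D70. On scales chosen after seeing the data, that of D12 was -1.54 by library totals, -1.77 relative to ATP6AP1 and -1.58 relative to ATP6AP2, and that of D30 relative to ATP6AP2 was -1.59. ATP6AP1 and ATP6AP2 passed between TMG and control under no alternative, and the sign of their small differences turned without 1 library: ATP6AP1 ran from -0.40 to 0.25 on D0, from -0.41 to 0.74 on D12 and from -0.44 to 0.39 on D70, and ATP6AP2 from -0.34 to 0.26 on D0 and from -0.52 to 0.49 on D12. The V-ATPase list held 0 to 2 calls on D70.

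Stage differences of the relatives in control cells moved across the threshold more often; the cause was not tested. For ATP6AP1L, given without a test, D12 over D0 ran from 0.71 to 1.91 without each library, D30 over D0 from 1.11 to 2.34, D70 over D0 from 0.85 to 2.05, D30 over D12 from 0.35 to 0.47, D70 over D12 from -0.19 to 0.40 and D70 over D30 from -0.62 to -0.0054. For ATP6AP2, D12 over D0 ran from -0.53 to 0.50 and D30 over D0 from 0.77 to 1.46. Its D30 over D12 was 0.64 without D12 control replicate 1 and 1.63 without D12 control replicate 2. Its D70 over D12 was 0.25 and 1.27 without the same libraries. For ATP6AP1, D12 over D0 ran from -0.032 to 1.13, D30 over D0 from 0.76 to 1.44, D70 over D0 from 0.66 to 1.47, D30 over D12 from -0.052 to 1.07, D70 over D12 from -0.025 to 1.13 and D70 over D30 from -0.38 to 0.36. Its D30 and D70 over D0 passed without D12 control replicate 1 or 2, D70 control replicate 2 or D70 TMG replicate 1 or 2. DESeq2 passed ATP6AP1 for D30 over D0 (1.07) and D70 over D0 (1.12) and ATP6AP2 for D30 over D12 (1.07), and RLE scaling passed ATP6AP1 for D70 over D0 (1.11).

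Replicate numbers were not shown to pair the libraries: the differences between replicates 1 and 2 correlated between arms, over genes, at 0.045, 0.367, 0.223 and 0.607 in turn from D0 to D70. With a replicate block within each stage, ATP6AP1 passed for D30 over D0 (1.06) and D70 over D0 (1.07), and ATP6AP2 for D70 over D0 (0.75) and D30 over D12 (1.07), and 0 V-ATPase genes passed between TMG and control. With 2 libraries per group and 20 to 200 reads of ATP6AP1L in each, its log2 fold changes carried standard errors of 0.40 to 0.41.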

Other observations

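Other genes with both TMG libraries below both control libraries at all 4 stages, and the lowest mean log2 fold change among those with a symbol, were NEPNP, TRH, GIPC3, LINC00449 and AWAT1. TRH, the precursor of thyrotropin-releasing hormone, was the 1 with many reads: it stood at 71.7 and 19.3 CPM in control and 15.8 and 1.86 CPM in TMG on D12, 456 and 721 against 175 and 1.80 CPM on D30, and 24.9 and 85.1 against 11.2 and 0.0925 CPM on D70. On D0 it was near 1.05 CPM in both control libraries and at 0.549 and 0.979 CPM in TMG. Its replicates were far apart, and the TMG values of 1.80 and 0.0925 CPM came from replicate 2, which was high in mesenchymal markers at both stages. Control replicate 2 of D70, also high in these markers, had 85.1 CPM of TRH. Since TRH was picked for its order of libraries, no test is given. LINC00449, a long non-coding RNA, had 11 and 17 counts in control and 2 and 1 in TMG on D30, and GIPC3, a protein of inner ear hair cells, 18 and 11 against 6 and 3 on D12. NEPNP, a pseudogene, and AWAT1, an enzyme of wax ester synthesis, had at most 20 counts in any library. These levels are too low for a fold change to be given.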
